A study of Homo sapiens with 2 samples.

Results

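Chromosome 17 carried 942 of the 14471 peaks that were listed for the transcription factor ZFX in DAOY cells, an established human medulloblastoma line. The peaks were split at the centromere of the hg19 build, between 22.26 and 25.26 Mb, which placed 299 on the short arm and 643 on the long arm. No peak fell between the borders. The study held 2 samples of this line, chromatin precipitated with a rabbit polyclonal ZFX antibody and sheared chromatin that was not precipitated (the input), with 1 library each. Peaks of the ZFX library were analysed, and the input was not analysed here. No genotype or treatment that differed between the samples is given in the labels.

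ZFX is a zinc finger protein encoded on the X chromosome that binds DNA, mostly close to the start sites of active genes, and acts as a transcriptional activator. Medulloblastoma is a childhood tumour of the cerebellum in which the arms of chromosome 17 are often unbalanced, most often by loss of the short arm and gain of the long arm joined in an isochromosome. The number of copies of each arm in DAOY was not measured here. More copies of an arm would give more chromatin to precipitate, so copy number and binding cannot be told apart in any value below.

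A single library gives no replicate check, and no test was made between arms or chromosomes. Intervals are exact 95% intervals, by the method of Clopper and Pearson for shares and by order statistics for medians. They cover counting error only, take peaks as independent although many lie side by side, and are therefore too narrow. The depth of the library is unknown. The score of a peak is the authors' own value without a stated unit, and ran from 50 to 3233 in the list.

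Both arms were rich in peaks, the short arm more so per Mb. Over the 22.1 Mb between its outermost peaks the short arm held 13.5 peaks per Mb, and the long arm held 11.6 per Mb over 55.4 Mb. The ratio of long to short arm was 0.857, with an interval from 0.746 to 0.986. The interval included 1 when neighbouring peaks at most 1 kb apart were joined to 1 region (ratio 0.896, 0.767 to 1.05) and when only peaks above the median score of the list were counted (0.834, 0.685 to 1.02). In 7 of the 8 alternatives tried the lower density of the long arm was within counting error. The gene density of the arms was close, at 15.6 protein-coding genes per Mb of peak span on the short arm and 14.9 on the long arm. The arm of a gene was taken from the order of genes on GRCh38.p14, in which the widest stretch without a protein-coding gene separates KCNJ18 from WSB1. By that order the short arm has 344 protein-coding genes and the long arm 825. This gave 86.9 peaks per 100 genes on the short arm and 77.9 on the long arm, a ratio of 0.897 (0.781 to 1.03). The long arm also carries 62 genes named as keratins or keratin-associated proteins, structural proteins of skin and hair, against 0 on the short arm, and the short arm carries 11 olfactory receptor genes against 2 on the long arm. Without these families the rates were 89.8 and 84.5 peaks per 100 genes.

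Among the other autosomes, each taken whole, chromosome 19 alone had more peaks per Mb than either arm. Its density was 16.6 peaks per Mb, while the median of the 21 other autosomes was 5.16 and the lowest, on chromosome 4, was 1.94. These autosomes were not split by arm, so a dense arm elsewhere would not show in such ranks. Chromosome 17 as a whole exceeded the other autosomes together, at 4.94 per Mb, by a ratio of 2.36 (2.21 to 2.52). Peaks covered 0.759% of the short arm, 0.640% of the long arm and 0.282% of the other autosomes. Spans of the arms leave out the centromere, while those of the other autosomes do not. With its centromere in the span, chromosome 17 had 11.6 peaks per Mb and 0.646% covered. The gap to the other autosomes was much smaller per gene, where chromosome 17 had 80.6 peaks per 100 protein-coding genes and the other autosomes 74.3.

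**Figure D1:**
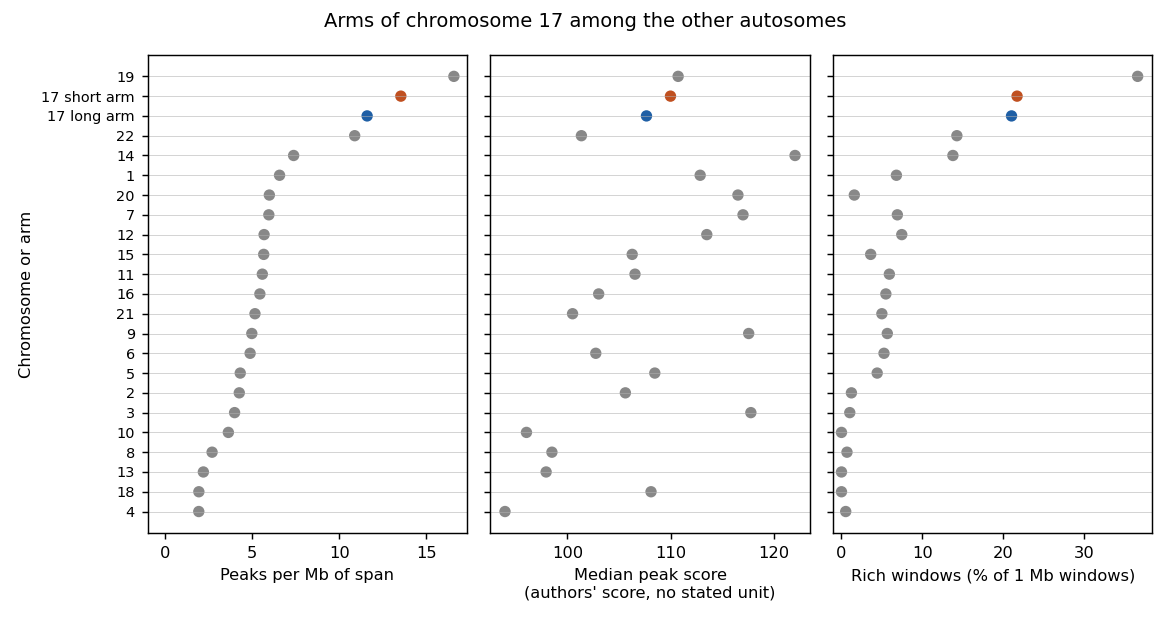
Peaks per Mb of the span between outermost peaks (left), median peak score (middle) and share of 1 Mb windows among the richest 5% of autosomal windows (right), with 1 point for each of the 21 other autosomes (grey) and each arm of chromosome 17 (short arm orange, long arm blue), ordered by density. Both arms rank next after chromosome 19 in density and in rich windows, where chromosome 19 stands well above them at 36.7%, and they lie in the middle of the autosomes in score. Centromeres are left out for the arms only, and the other autosomes are not split by arm.

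The higher density did not come with stronger or wider peaks. The median score was 110.0 (92.5 to 121.6) on the short arm and 107.7 (96.2 to 117.6) on the long arm, a ratio of 0.979, against 109.3 on the other autosomes. Of the other 21 autosomes, 8 had a higher median score than the short arm and 10 a higher one than the long arm. The range over these autosomes was 94.0 on chromosome 4 to 122.0 on chromosome 14. Weak peaks took like shares, with scores under 100 in 47.5% (41.7% to 53.3%) of short arm peaks, 47.7% (43.8% to 51.7%) of long arm peaks and 46.4% of peaks on the other autosomes. The 75th percentile of the score was 217 on the short arm, 234 on the long arm and 223 on the other autosomes. The 90th percentile was 467 on the short arm and 428 on the long arm, so the order of the arms changed along the range of scores.

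Widths were nearly equal between arms. The median peak was 461 bp wide on the short arm (432 to 503) and 465 bp on the long arm (439 to 503), and 485 bp on the other autosomes (479 to 490). At the upper end the short arm had a larger share of wide peaks. Of its peaks, 20 (6.69%, 4.13% to 10.1%) reached 1200 bp, against 23 (3.58%, 2.28% to 5.32%) on the long arm and 4.69% on the other autosomes. The intervals of the arms overlapped.

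Because wider peaks have higher scores in this list, scores were also set side by side within 4 bands of width, cut at the quartiles of the whole list. Among peaks of up to 345 bp the median score was 58.5 on the short arm and 59.9 on the long arm. In the next band, up to 481 bp, it was 81.6 and 84.1. Peaks of up to 695 bp had medians of 139.9 and 148.5, and wider ones 385 (292 to 484) and 352 (312 to 406). Thus the long arm was slightly higher in 3 bands and the short arm in the widest one, with overlapping intervals throughout. The other autosomes had 58.8, 82.2, 145.6 and 344 in the same bands.

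**Figure D2:**
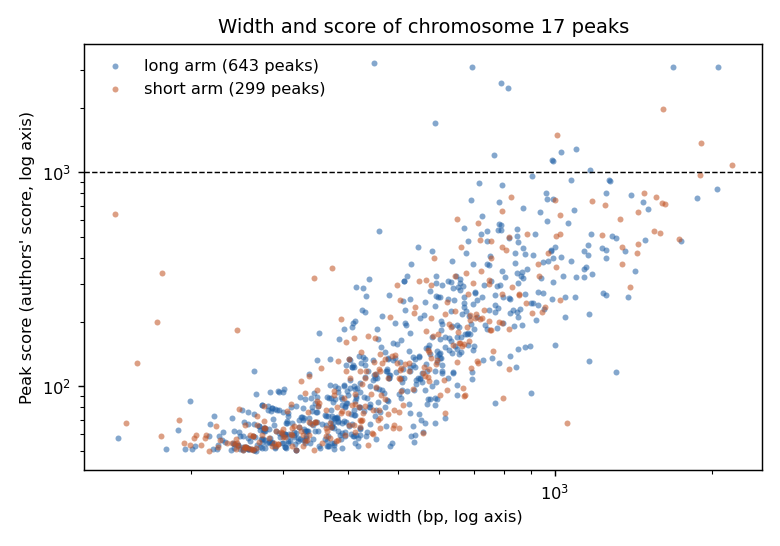
Width (horizontal, bp, log axis) against the authors' score (vertical, log axis) for the 299 short arm peaks (orange) and 643 long arm peaks (blue) of chromosome 17, with a dashed line at a score of 1000. The arms overlap over most of the range, while the 4 peaks at 3100 or more are all blue and the narrow peaks that stand above the rest at the left are orange.

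The strongest peaks were on the long arm. A score of 1000 or more was reached by 13 long arm peaks (2.02%, 1.08% to 3.43%) and 4 short arm peaks (1.34%, 0.366% to 3.39%), against 2.11% on the other autosomes. The shares overlapped in their intervals. All 4 chromosome 17 peaks at or above 3100, a value shared by 28 peaks of the list and exceeded by 3, lay on the long arm. A count of 0 among 299 allows a share of up to 1.23% on the short arm by the exact interval (1.00% by the limit of 3 counts). A tie of 28 peaks at the same value can mark a ceiling of the score, which was not tested. Scores from 3100 upward may therefore not rank these peaks by strength. These 4 differed greatly in width. The peak at chr17:33478049-33478497 scored 3230 over 449 bp. None of the 6499 peaks of the list that were no wider, this peak counted among them, had a higher listed score. Whether any of them tied at 3100 was weaker cannot be told. Next to it in width, chr17:31149369-31150060 scored 3100 over 692 bp and had no other peak within 105 kb. The other two scoring 3100 were broad, 1683 bp at chr17:38803498-38805180 and 2060 bp at chr17:60555364-60557423, the widest peak of the arm. The fifth was chr17:60004764-60005552 with a score of 2609 over 789 bp.

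At 1000 or more, the 4 short arm peaks had a lower top score and a larger median width than the 13 of the long arm. Counts of 4 and 13 are too small to set the arms apart in either. The highest of the short arm, chr17:6543011-6544622, scored 1983 over 1612 bp. It was followed by chr17:11924077-11925085 with 1490 over 1009 bp, in a stretch where peaks were otherwise sparse, and by chr17:17584532-17586441 with 1376 over 1910 bp. The widest peak of the arm, chr17:3791490-3793674, covered 2185 bp and scored 1079. The fifth by score, at chr17:1011936-1013832, scored 968 over 1897 bp and lay 105 bp from its neighbour. The 4 that reached 1000 were 1009 to 2185 bp wide with a median of 1761 bp, while the 13 of the long arm ranged from 449 to 2060 bp with a median of 986 bp. Of those 13, 6 had no other peak within 50 kb, against 0 of the 4 on the short arm. Among all peaks the arms were alike in this. The 84th percentile of the distance to the nearest peak was 50.3 kb on the short arm and 51.5 kb on the long arm. A count of 0 among 4 is therefore too small to set the arms apart.

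The short arm had a small group of narrow peaks with scores that were high for their width. Of its 83 peaks in the narrowest band (up to 345 bp), 7 scored above the median of the list, 8.43% (3.46% to 16.6%). On the long arm 2 of 165 did so (1.21%, 0.147% to 4.31%), and on the other autosomes 3.54% (2.94% to 4.23%). This comparison was chosen after the scatter of width and score had been seen, and the intervals of the arms overlapped. The peak that stood out most, chr17:19091350-19091492, scored 637 over 143 bp. Only 9 peaks of the list were no wider, this peak counted among them, and none scored higher. The nearest of the 7 before it were chr17:18967061-18967236 with 339 over 176 bp and chr17:19015215-19015459 with 183.7 over 245 bp. All 6 peaks between 18.9 and 19.1 Mb were narrow, 143 to 376 bp, with scores of 67.2 to 637. Another was the last peak before the centromere, chr17:22253131-22253302, with 200.4 over 172 bp. It lay 6.70 kb from the border and 232 kb from the nearest other peak. Of the remaining 3, chr17:16768665-16768822 scored 129.2 over 158 bp and lay 177 kb from any other peak. The peak at chr17:2207259-2207603 scored 322 over 345 bp and lay 5 bp from its neighbour, and chr17:9548704-9549041 scored 112.2 over 338 bp. Repeated sequence and mapping at these peaks were not tested. Across the centromere, the first long arm peak at chr17:25621109-25622008 was of the opposite shape, 900 bp wide with a score of 93.4, and lay 361 kb from the border.

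Along each arm the peaks were very uneven. Each peak was assigned by its midpoint to a 1 Mb window, 23 on the short arm and 57 on the long arm, where the windows next to the centromere are partial. Windows of the short arm held 2 to 37 peaks with a median of 12, those of the long arm 0 to 50 with a median of 9, and those of the other autosomes 0 to 51 with a median of 3. The richest 5% of the 2799 autosomal windows were those with 19 or more peaks. They made up 5 of 23 windows on the short arm (21.7%, 7.46% to 43.7%) and 12 of 57 on the long arm (21.1%, 11.4% to 33.9%), against 4.71% (3.95% to 5.58%) on the other autosomes. With each of the other autosomes taken whole, chromosome 19 alone had a higher share than the arms, 36.7%. Rich windows held 48.8% of the short arm peaks and 47.3% of the long arm peaks, against 24.6% on the other autosomes. Empty windows were few, 0 of 23 on the short arm (which allows up to 14.8% by the exact interval and 13.04% by the limit of 3 counts) and 4 of 57 on the long arm (7.02%, 1.95% to 17.004%), while 25.1% of windows on the other autosomes were empty. Chromosomes 22 (2.86%) and 19 (6.67%) also had few. Windows lying wholly in the centromere were left out for the arms, but those of the other autosomes were kept. With them, chromosome 17 had 17 rich windows of 82 (20.7%) and 6 empty ones (7.32%).

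**Figure D3:**
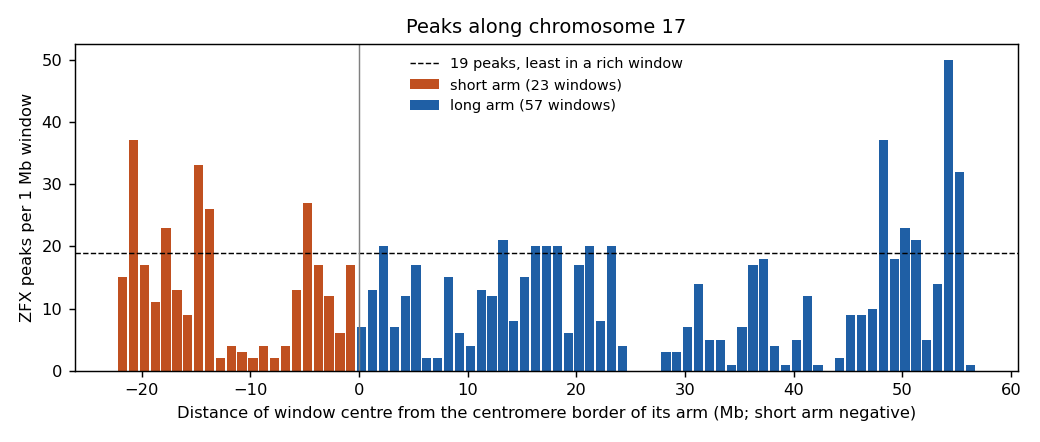
ZFX peaks in each 1 Mb window (vertical) against the distance of the window centre from the centromere border of its arm (horizontal, Mb), with the short arm at negative distances (orange, 23 windows) and the long arm at positive ones (blue, 57 windows). The exception is the partial short arm window at 22 to 23 Mb, with 2 peaks. Its centre lies at 0.24 Mb, where the first long arm bar, with 7 peaks, covers it. The dashed line marks 19 peaks, the least in a rich window. The tallest bar of each arm is near its chromosome end, and a poor block lies in the middle of each arm.

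The stretches given next were set after the window counts had been seen and serve as description. On the short arm the outer 9 Mb held 184 peaks, 61.5% of the arm, at 20.4 per Mb. Between 9 and 16 Mb only 21 peaks followed, 3.00 per Mb, and none of these was within 1 kb of another. The density rose again to 15.02 per Mb, 94 peaks, between 16 Mb and the centromere. The richest windows of the arm were 1 to 2 Mb with 37 peaks, 7 to 8 Mb with 33 and 17 to 18 Mb with 27. Their median scores were 108.3, 99.6 and 91.5. The 3 longest peak-free stretches of the arm lay in the poor block or reached into it. They covered 1.02 Mb from 8533144 to 9548703, 0.951 Mb from 14212743 to 15163925 and 0.900 Mb from 10601256 to 11501726.

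The long arm had 3 denser stretches separated by 2 poorer ones. From the centromere to 31 Mb it held 76 peaks at 13.2 per Mb, with a median score of 138.0 (99.98 to 202), the highest of the 8 stretches, and a median width of 605 bp. None of these 76 reached a score of 1000. Between 31 and 36 Mb the density was 5.80 per Mb, 29 peaks, and 3 of these scored 1000 or more, the narrow peak with the score 3230 among them. The block from 36 to 50 Mb held 204 peaks at 14.6 per Mb. Its 6 rich windows were of even height with 20 or 21 peaks each, and its median score was 93.4 (84.5 to 108.3). Between 50 and 73 Mb there were 133 peaks at 5.78 per Mb. This block opened with most of the longest peak-free stretch of the chromosome, 4.16 Mb from 49338413 to 53498370, which held 3 of the 4 empty windows. The other long stretches, 1.72 Mb from 67323888 to 69041985 and 1.26 Mb from 58677371 to 59940198, lay in the same block. From 73 Mb to the last peak the arm was at its densest, with 201 peaks at 25.01 per Mb. The richest windows of the arm were all there, 79 to 80 Mb with 50 peaks, 73 to 74 Mb with 37 and 80 to 81 Mb with 32. Of the 2799 autosomal windows, 1 held more peaks than the window at 79 to 80 Mb.

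Both chromosome ends were dense. The outer 5 Mb, counted from the outermost peak, held 105 peaks on the short arm (21 per Mb) and 123 on the long arm (24.6 per Mb), against 11.4 and 10.3 per Mb in the rest of the arms. Of 37 ends of other autosomes, with the short arms of the 5 acrocentric chromosomes left out, 2 held more peaks than either end of chromosome 17. Their median was 44 peaks, and the highest, 170, was at the start of chromosome 19. Scores at the ends were like those elsewhere. The median was 110.2 (82.0 to 148.5) in the outer 5 Mb of the short arm and 106.0 (88.5 to 122.9) in its rest, and 105.2 (81.6 to 139.0) and 107.7 (94.8 to 118.0) on the long arm. Without the outer 5 Mb the density ratio of long to short arm was 0.908 (0.769 to 1.08).

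The share of closely spaced peaks was larger on the short arm, within counting error of the long arm. A neighbour within 1 kb was found for 119 short arm peaks (39.8%, 34.2% to 45.6%), 220 long arm peaks (34.2%, 30.5% to 38.0%) and 31.9% (31.1% to 32.7%) of peaks on the other autosomes. None of the 21 other autosomes, each taken whole, had a share above that of the short arm. The highest, 39.4% on chromosome 21 with 198 peaks, was within the interval of the short arm. Spacing is not independent of the density of peaks, which was higher on chromosome 17 than on the other autosomes together. The median distance to the nearest peak was 4.87 kb on the short arm, 8.69 kb on the long arm and 14.8 kb on the other autosomes. Far from others, by more than 100 kb, were 26 short arm peaks (8.70%, 5.76% to 12.5%), 39 long arm peaks (6.07%, 4.35% to 8.20%) and 17.1% on the other autosomes. The intervals of the arms overlapped here as well. Joining close peaks left 234 regions on the short arm, of which 9 held 3 or more peaks, and 526 on the long arm, of which 11 did.

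**Figure D4:**
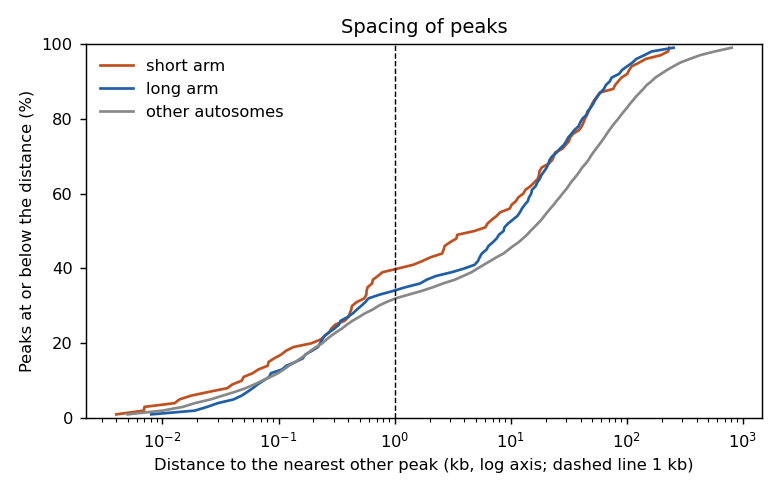
Percentage of peaks (vertical) whose nearest other peak lies within the distance on the horizontal axis (kb, log axis), for the short arm (orange), the long arm (blue) and the other autosomes (grey). At the dashed line of 1 kb the short arm stands at 39.8%, the long arm at 34.2% and the other autosomes at 31.9%, and beyond 20 kb the arms run close together above the other autosomes.

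No run of close peaks on chromosome 17 exceeded 4 peaks. The short arm had 2 such runs, chr17:7759712-7761761 and chr17:8124065-8126347, both in or next to its second richest window, with scores of 51.7 to 140.5 and 54.7 to 168.9. The long arm had 3. At chr17:79479226-79482811, in its richest window, 4 peaks of 540 to 885 bp covered a region of 3586 bp with scores of 135.0 to 352. At chr17:41321694-41324429 the scores were 107.1 to 274, and at chr17:75318031-75320219 they were 55.5 to 135.4. All peaks of these runs thus scored far below 1000.

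In rich windows the peaks lay closer together and had lower median scores than in the rest of the same arm. On the short arm 52.1% (43.6% to 60.4%) of the 146 peaks in rich windows had a neighbour within 1 kb, against 28.1% (21.1% to 35.9%) of the other 153. On the long arm the shares were 42.4% (36.8% to 48.2%) of 304 and 26.8% (22.2% to 31.9%) of 339. The windows were chosen by their number of peaks, which is not independent of spacing. Median scores were 94.0 (77.9 to 118.0) in rich and 120.8 (96.0 to 148.5) in other windows of the short arm, and 97.6 (87.2 to 110.2) and 115.9 (99.98 to 132.6) on the long arm. The order was the same on both arms, with overlapping intervals on each. Of the 17 peaks at 1000 or more, 5 lay in rich windows, 1 on the short and 4 on the long arm. These windows held 47.8% of all peaks of the chromosome. A count of 5 among 17 is too small to tell the share of strong peaks from that of all peaks.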

How the data were processed

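The 2 DAOY samples, ZFX ChIP-seq and input, were grouped by their labelled antibody. Bowtie2 2.0.0 and hg19 are named, with no role, in the submitters' processing notes, and peaks in the deposited list are named after MACS. The sources used here do not give how MACS was run. For every peak the authors deposited start, end and a score with no stated unit. Starts were taken as counted from 0 and are printed from 1. Arms, windows, members and comparisons were chosen with earlier results of these data known. Regions named were, per arm, the 5 highest scores, the 3 widest peaks, the 3 richest windows, the 3 longest peak-free stretches, the longest runs and the peaks beside the centromere. Other regions were chosen after their values were seen. No gene was tied to a peak and the sequence under peaks was not analysed here, because the gene table is on another build. It was used for the order and number of genes only. The counting scripts were tested on simulated data. Counting used pandas 2.3.3 and numpy 2.4.6 under Python 3.11.15, intervals scipy 1.17.1 and plots matplotlib 3.10.9.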

Additional observations from a re-analysis of the deposited data

How the results depend on the processing

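Of 31 alternatives for 9 results, 23 kept the value within the interval of the main setting, and 3 of the 31 were chosen after seeing the data. The density ratio of long to short arm stayed below 1 in its 8 alternatives, from 0.834 to 0.941, and in 7 of these its own interval included 1. With the richest 10% of windows in place of 5%, the share of rich windows was 40.4% on the long arm and 47.8% on the short arm, a change the wider definition brings by construction. Neighbours within 500 bp were found for 29.5% of long arm and 31.4% of short arm peaks, within 5 kb for 41.4% and 50.2%, and among peaks above the median score, neighbours too, for 15.8% and 21.2%. The median score ratio of the arms was 0.969 to 1.09 and the median width difference, long minus short arm, was 4 bp, or -19 bp with close peaks joined. Because the depth of the library is unknown, the number of weak sites below the threshold of the list is unknown too.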
